A study of Homo sapiens with 6 samples.

Results

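The genes described here are 10 immune checkpoint ligands and immunosuppressive enzymes: the checkpoint ligands Cd274, Pdcd1lg2, Cd80, Cd86, Pvr, Cd47 and Lgals9 and the enzymes Ido1, Nt5e and Entpd1. They were taken from a count table of 22989 genes by their symbols, and 10 of 10 were found. The RNA-seq libraries were 3 LINC00115 KD and 3 WT, the latter called control below, all described by the study as MDA-MB-231 PTX-resistant BCSC. The line MDA-MB-231 comes from a human breast cancer without hormone receptors or HER2 amplification, PTX-resistant means selected for resistance to paclitaxel, and BCSC are breast cancer stem-like cells, sorted by the study for high aldehyde dehydrogenase (ALDH) activity. LINC00115 KD denotes knockdown of the long non-coding RNA LINC00115 with a short hairpin RNA (shRNA). The KD libraries are numbered sh115-1 to sh115-3 and the labels give no hairpin for them, although the study names its hairpin sh115-2 for the comparison, and the labels call the controls WT where the study's text names a control shRNA. Nothing says that the libraries of a group came from separate cultures, so the p-values measure the spread between these libraries, which may be technical.

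The libraries held between 36979221 and 38799331 counts. The symbols in the table are those of mouse genes, with 4648 Gm names and 1129 Rik names, and 16 symbols equal a human symbol as written. Mouse gene names such as H2-T23 and Oas1a had 1530 to 4205 and 2921 to 11170 counts. The counted features are therefore mouse genes, although the study names a human line, and this conflict was not resolved. All 10 of the genes equal a human symbol apart from case. The table has 0 genes named LINC00115, so the knockdown could not be checked and every direction rests on the labels. Of 11 markers of the labelled line and its ALDH gate, Vim had 126885 to 145878 counts and Cd44 32751 to 36274 counts. Aldh1a1 had 12, 8 and 17 control counts and 52, 39 and 41 KD counts, and Aldh1a3 had 0 to 4 counts. Esr1 had 29, 26 and 24 control counts and 105, 82 and 104 KD counts. Cdh1 had 2, 1 and 3 against 22, 30 and 31, and Erbb2 592, 689 and 640 against 1061, 1033 and 1029. Of the 11, 7 lay above 3 counts and above all controls in each KD library. Without that limit of 3 counts, 37.8% of all genes tested lay above all controls. A list of 10 lung epithelial genes summed to 1.59 to 1.98 CPM (counts divided by the scaled library total in megareads) in the controls and 74.5 to 86.2 CPM in the KD libraries, and its part in the results below was not tested.

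Immune checkpoints are receptor and ligand pairs that restrain T cells, natural killer cells or macrophages, and tumor cells that display the ligands can be spared from attack. The PD-1 ligands are PD-L1, the product of Cd274, and PD-L2, the product of Pdcd1lg2. Interferons raise Cd274 through JAK kinases, STAT factors and IRF1 in many cell types. A further group of enzymes acts through metabolites: IDO1 converts tryptophan to kynurenine, and CD39 (Entpd1) followed by CD73 (Nt5e) converts extracellular ATP to adenosine.

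To show regulatory DNA of the human genes of the same names, the 250 bases before their start are given from RefSeq on GRCh38.p14. Each is read 5′ to 3′ on the strand of its gene. They are human sequences, matched by symbol, while the counted features carry the names of mouse genes. These windows are therefore not the promoters of the features counted. CD274 lies at chr9:5450292-5450541 on the plus strand and LGALS9 at chr17:27630938-27631187 on the plus strand. CD47 lies at chr3:108091032-108091281 on the minus strand and NT5E at chr6:85449833-85450082 on the plus strand. CD274 and LGALS9 are shown because both genes were called higher, CD47 because it changed less, and NT5E because it did not pass the test. Capitals mark matches on either strand to an IRF element (GAAANNGAA), a GAS element bound by STAT factors (TTCNNNGAA) or the core of the hypoxia response element (ACGTG).
CD274: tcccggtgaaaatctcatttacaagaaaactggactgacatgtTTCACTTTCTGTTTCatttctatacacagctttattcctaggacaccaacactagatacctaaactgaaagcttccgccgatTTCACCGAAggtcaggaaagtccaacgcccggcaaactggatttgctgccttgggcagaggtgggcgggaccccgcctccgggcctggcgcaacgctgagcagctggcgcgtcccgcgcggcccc
LGALS9: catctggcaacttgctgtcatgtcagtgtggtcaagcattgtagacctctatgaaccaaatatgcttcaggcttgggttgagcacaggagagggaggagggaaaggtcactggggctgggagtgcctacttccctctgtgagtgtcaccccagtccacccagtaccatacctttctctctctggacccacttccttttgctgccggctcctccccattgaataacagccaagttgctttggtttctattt
CD47: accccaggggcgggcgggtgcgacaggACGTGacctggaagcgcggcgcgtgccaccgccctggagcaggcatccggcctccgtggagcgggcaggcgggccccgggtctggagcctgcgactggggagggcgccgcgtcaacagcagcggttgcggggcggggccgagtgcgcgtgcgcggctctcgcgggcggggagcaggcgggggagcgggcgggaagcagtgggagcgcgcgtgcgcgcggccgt
NT5E: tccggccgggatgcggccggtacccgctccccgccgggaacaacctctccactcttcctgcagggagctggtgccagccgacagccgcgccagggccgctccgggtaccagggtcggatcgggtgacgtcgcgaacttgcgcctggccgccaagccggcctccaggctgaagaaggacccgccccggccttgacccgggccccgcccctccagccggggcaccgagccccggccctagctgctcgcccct

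The CD274 window held 2 overlapping IRF matches, from 207 to 199 and from 201 to 193 bases before the start, and a GAS match from 125 to 117 bases before it. The CD47 window held 1 hypoxia core, from 223 to 219 bases before the start. No match to these letters was found in the LGALS9 and NT5E windows. Promoters were available for 8 of the 10 genes, and the windows of Cd80, Cd86, Pvr and Entpd1 held no match either. Of 27305 promoter windows of the same length, 7.06% held the IRF element, 6.78% the GAS element and 18.7% the hypoxia core. A match is a run of letters and not evidence of binding.

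Of the 10 genes, 5 passed the low-count filter and were tested: Cd274, Lgals9, Cd47, Pvr and Nt5e. A call required both an adjusted p below 0.05 and more than a 2-fold difference in edgeR's quasi-likelihood test over all 13497 genes tested. Cd274 and Lgals9 were called higher in the KD libraries, 2 of 5 tested, where 10.2% of all genes tested were called higher. None was called lower, where 9.98% of all genes were. By the adjusted p-value alone, 4 of the 5 were higher and 0 were lower, beside 36.7% of all genes in each direction. The normalized CPM of 4 of the 5 lay above every control in every KD library, as it did for 37.8% of all genes tested. The median log2 fold change was 0.52 over these 5 genes and −0.01 over all genes tested. The other 5 genes had at most 15 counts in any library, so these counts describe the 5 tested genes only. In bulk RNA, a different share of cells of a type and a different amount of RNA per cell cannot be told apart.

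Cd274 encodes PD-L1, the ligand through which tumor cells engage PD-1 on T cells. It had 46, 49 and 67 counts in the control libraries and 449, 481 and 475 in the KD libraries, or 1.22, 1.30 and 1.77 against 11.6, 13.1 and 12.5 normalized CPM. Every KD library lay far above every control, and the controls were low but not at 0. The mean rose from 1.43 ± 0.299 to 12.4 ± 0.752 normalized CPM (SD, n = 3 libraries each), an 8.65-fold difference (95% confidence interval 6.84 to 10.9). The log2 fold change was 3.11 with a standard error of 0.17 (adjusted p = 4.93e-18, edgeR's quasi-likelihood test with Benjamini-Hochberg adjustment). By size of increase Cd274 ranked 303 of the 13497 genes tested.

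Pdcd1lg2, the gene of PD-L2, is the neighbor of CD274 in the human genome. On GRCh37, CD274 spans 5450503 to 5470566 and PDCD1LG2 spans 5510531 to 5571282 of chromosome 9, both on the plus strand and 39965 bp apart. Pdcd1lg2 had 0, 1 and 0 counts in the control libraries and 0, 0 and 1 in the KD libraries. All 6 values lie under 3 counts, the limit that a count of 0 allows for counting error, so no difference was detectable at this depth. On the other side of CD274, at a distance of 12578 bp, Plgrkt, a plasminogen receptor gene, had 230, 249 and 262 control counts and 335, 327 and 321 KD counts, 0.41 ± 0.13 (SE) on the log2 scale with an edgeR adjusted p of 0.00615. Ric1 and Ermp1, 158459 and 279266 bp away, had differences of 0.09 ± 0.06 and −0.07 ± 0.05 (SE) on the log2 scale and did not pass (edgeR adjusted p 0.202 and 0.186). Among the tested genes whose human namesakes lie within 300000 bp, Cd274 was the only gene called, and Insl6 had the next largest log2 fold change, 0.88. All distances are those of the human genes, matched by symbol, and not of the features counted.

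Lgals9 encodes galectin-9, a secreted lectin that binds TIM-3 (Havcr2) on T cells. It had 7656, 7916 and 8392 counts in the control libraries and 21629, 20950 and 21429 in the KD libraries. The groups lay well apart, and the 3 KD libraries agreed within a coefficient of variation of 1.02%. Its level rose from 212 ± 9.59 to 565 ± 5.76 normalized CPM (SD, n = 3 each), 2.67-fold (95% confidence interval 2.54 to 2.80). The log2 fold change was 1.42 with a standard error of 0.04 (adjusted p = 7.69e-28, edgeR's quasi-likelihood test). In the human genome LGALS9 has the near-identical copies LGALS9B and LGALS9C. The table lists 0 of them, but its features carry mouse names, so their absence does not bear on the Lgals9 counts. How reads shared between similar genes were counted is not stated.

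Cd47 encodes the signal that restrains phagocytosis through SIRPα on macrophages, and Pvr encodes CD155, a ligand shared by the inhibitory receptor TIGIT and the activating receptor CD226. Cd47 had 5231, 5701 and 5311 counts in the control libraries and 8003, 7466 and 7792 in the KD libraries. Pvr had 7359, 6693 and 6933 control counts and 8963, 8347 and 8759 KD counts. In both genes every KD library lay above every control. The lowest KD and highest control values were 203 and 151 normalized CPM for Cd47 and 227 and 195 for Pvr. Cd47 rose from 143 ± 6.59 to 205 ± 1.77 normalized CPM (SD, n = 3 each), 1.43-fold (95% confidence interval 1.35 to 1.51, adjusted p = 4.84e-14, edgeR). Pvr rose from 185 ± 9.17 to 230 ± 2.26 normalized CPM, 1.24-fold (95% confidence interval 1.18 to 1.31, adjusted p = 5.85e-09, edgeR). The intervals of both lie under a fold change of 2.

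Nt5e encodes CD73, the surface enzyme that forms adenosine from AMP. It had 6954, 7373 and 6945 counts in the control libraries and 7285, 6994 and 7670 in the KD libraries, and the groups overlapped. The means were 188 ± 6.43 and 194 ± 7.31 normalized CPM (SD, n = 3 each), a ratio of 1.03 (95% confidence interval 0.976 to 1.09, adjusted p = 0.316, edgeR). The upper bound of this interval, 1.09, lies under the lower bounds for Pvr, 1.18, and Cd47, 1.35.

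**Figure D1:**
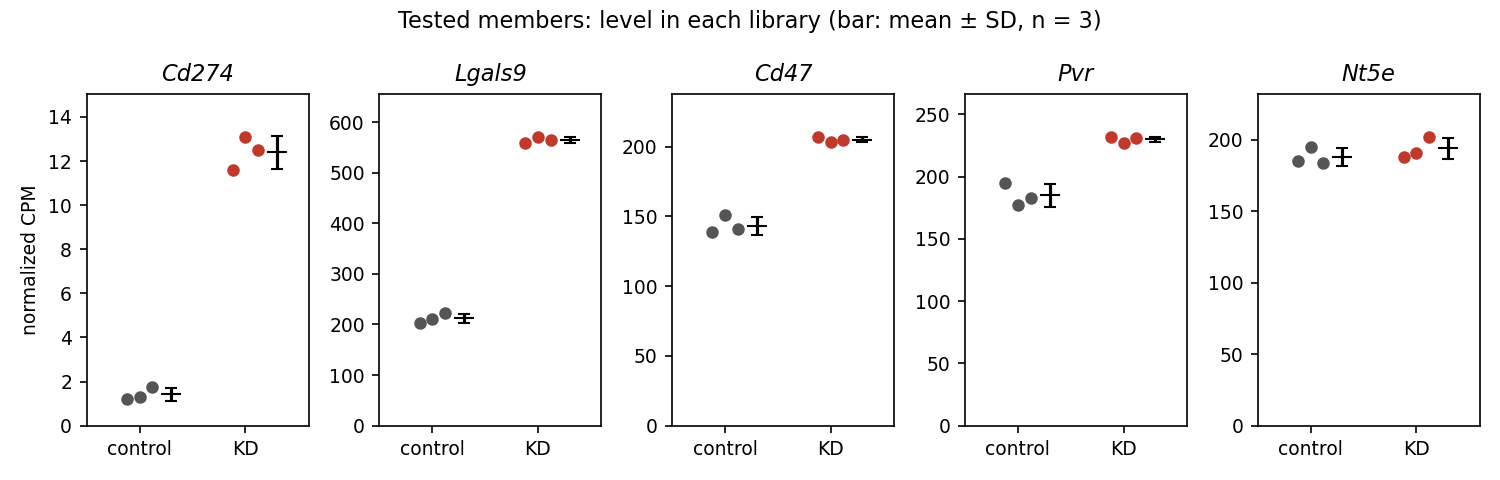
Normalized CPM of the 5 tested genes in each library (points, control grey and KD red), with the mean and SD of 3 libraries beside them and a linear axis from 0 for each gene. Cd274 goes from a mean of 1.43 to 12.4 and Lgals9 from 212 to 565, while the Nt5e groups overlap.

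**Figure D2:**
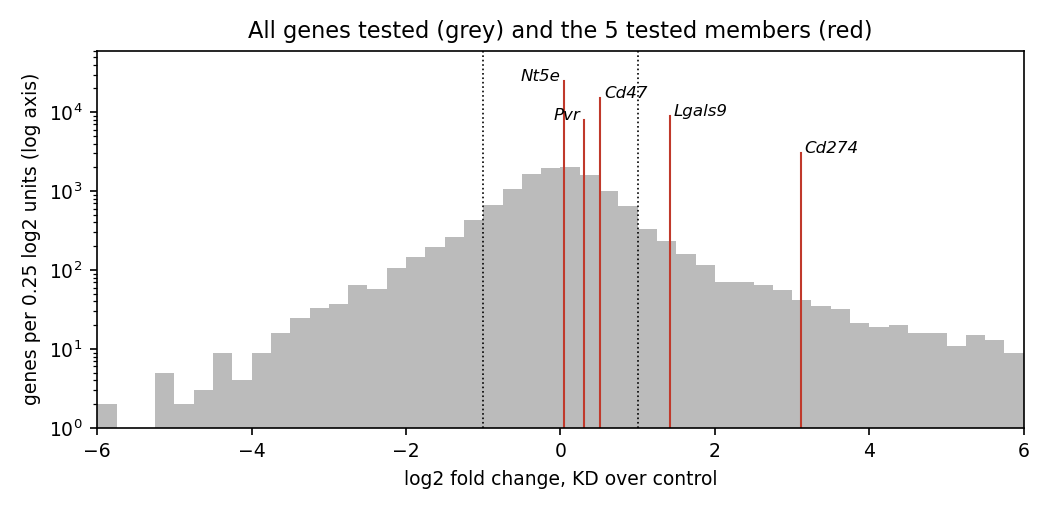
Number of genes per 0.25 log2 units of fold change among all 13497 genes tested, drawn from −6 to 6 on a log axis, with red lines at the 5 tested genes and dotted lines at a fold change of 2. Cd274 at 3.11 and Lgals9 at 1.42 lie outside the dotted lines and Cd47, Pvr and Nt5e inside.

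Among the enzymes, Ido1, which carries out the rate-limiting step of tryptophan breakdown, was counted 1, 0 and 0 times in the control libraries and 10, 4 and 3 times in the KD libraries. Every KD library was above every control, on 17 counts against 1. The depth-scaled ratio was 16.7, with an exact 95% counting interval of 2.62 to 700, and it was 10.4 (1.34 to 471) without KD replicate 1. These intervals cover counting error only. Without the low-count filter the adjusted p-value was 0.0512 in edgeR. DESeq2's Wald test, with that tool's own filter on mean counts, gave 0.0492 with a log2 fold change of 3.98. The call of Ido1 thus depended on the tool and its filter.

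Entpd1 encodes CD39, which removes phosphates from ATP and ADP to leave AMP for CD73. It had 1 count in each control library and 15, 4 and 5 counts in the KD libraries. The KD libraries were higher, and KD replicate 1 stood apart from the others. The ratio of 24 to 3 counts was 7.88 (exact 95% counting interval 2.39 to 40.9), and it was 4.48 (1.12 to 25.7) without KD replicate 1. The adjusted p-value was 0.0572 in edgeR without the low-count filter and 0.0514 in DESeq2's Wald test.

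Cd80 and Cd86 encode B7-1 and B7-2, the ligands by which antigen-presenting cells engage CD28 and CTLA-4 on T cells. Cd80 had 0 counts in every control library and 1, 3 and 4 counts in the KD libraries. Cd86 had 0 counts in every control library and 0, 3 and 1 in the KD libraries. Cd80 lay above every control in each KD library, while the Cd86 groups overlapped. Neither gene exceeded 4 counts in any library, so no fold is given. Without the low-count filter the adjusted p-values were 0.0695 and 0.181 in edgeR.

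**Figure D3:**
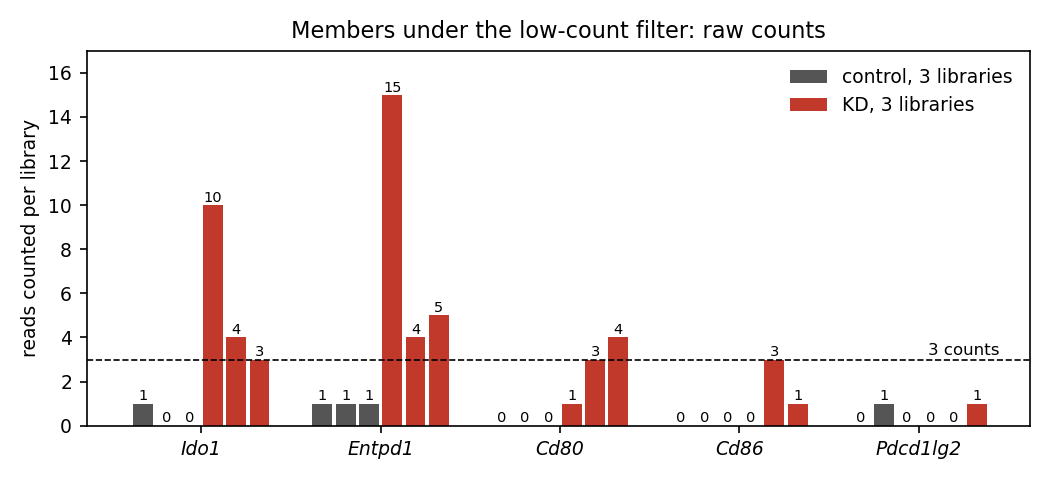
Reads counted in each library for the 5 genes under the low-count filter, with control libraries in grey, KD libraries in red and a dashed line at 3 counts. Ido1 and Entpd1 pass the line in KD libraries with up to 10 and 15 counts, and Pdcd1lg2 has at most 1 count.

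Markers of cells that carry Cd80, Cd86, Ido1 and Entpd1 were read in the same libraries. Of 16 genes of antigen-presenting and myeloid cells in the table, 6 lay above 3 counts and above all controls in each KD library, and 1 lay below them. Of all genes tested, 37.8% lay above all controls in each KD library, without that limit of 3 counts. For genes below all controls no such share was computed. The sum of the 16 genes went from 63.2 to 76.6 CPM in the controls to 107 to 113 CPM in the KD libraries. Most of the rise in the sum was in Cd14, which went from a mean of 15.7 to 50.9 CPM, while Cd68 overlapped between the groups at means of 42.8 and 47.2 CPM. Lyz2 went from 33, 52 and 5 control counts to 249, 250 and 247 KD counts. Cd74 went from 46, 29 and 30 control counts to 127, 94 and 151 KD counts. Like Cd14, both were called higher. The gene that was lower was Mrc1, a macrophage receptor, with 334, 277 and 226 control counts and 61, 41 and 31 KD counts. The pan-leukocyte gene Ptprc had 12, 5 and 5 control counts and 13, 8 and 8 KD counts, which overlap. The MHC class II genes H2-Aa and H2-Ab1 had 0, 0 and 1 and 0, 0 and 0 control counts against 24, 6 and 11 and 7, 10 and 13 KD counts. They moved in the same direction as Ido1 and Entpd1 on similar counts. Other genes of this list did not: Itgam, Itgax, Adgre1, Csf1r, Fcer1g, Tyrobp and Flt3 had at most 14 counts in any library. None of them lay above all controls in each KD library. Of 6 lymphoid genes in the table, 4 were at or under 3 counts in every library, and the defining T cell gene Cd3e was at 0 in all 6. Of 8 endothelial genes, by the same limit of 3 counts, 2 were higher in every KD library and 1 was lower. Cdh5 had 14, 5 and 6 control counts and 2175, 2136 and 2243 KD counts. Cldn5, the other higher gene, had 0 counts in every control and 9, 9 and 18 KD counts. The lower gene was Plvap, with 36, 60 and 41 control counts and 26, 22 and 20 KD counts. Pecam1, Kdr and Tek had at most 19 counts. Of 8 fibroblast genes, 0 were higher and 3 were lower by that limit. By the adjusted p-value alone, 3 of 7 tested antigen-presenting and myeloid genes were higher and 1 lower. Of 4 tested endothelial genes 1 was higher and 1 lower, and of 4 tested fibroblast genes 0 were higher and 2 lower. Of all genes tested, 36.7% passed in each direction. The part of other cells in the few counts of Cd80, Cd86, Ido1 and Entpd1 was not tested.

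The receptors and partners of these ligands belong mainly to immune cells, yet several were well counted. Of 13 listed genes found, 7 were tested, with 1 called higher and 2 lower and a median log2 fold change of −0.03. Beside this list and those below, 10.2% of all genes tested were called higher and 9.98% lower. By the adjusted p-value alone, 36.7% of all genes tested passed in each direction. Tigit, a receptor of Pvr, had 490, 540 and 507 control counts and 1202, 1259 and 1151 KD counts, 1.23 ± 0.08 (SE) on the log2 scale with an edgeR adjusted p of 1.19e-15. Cd28, the activating receptor of Cd80 and Cd86, fell from 855, 777 and 847 counts to 145, 187 and 172, −2.30 ± 0.11 (SE) on the log2 scale with an edgeR adjusted p of 4.84e-19. Sirpa, the receptor of Cd47, fell from 1221, 1135 and 1163 counts to 617, 596 and 521, a log2 fold change of −1.02. It was less than 2-fold lower without control replicate 1 (−0.99) or without KD replicate 3 (−0.94). Havcr2, the receptor of Lgals9, had 3280 to 3629 control counts and 3559 to 3683 KD counts, which overlap (log2 fold change 0.08, adjusted p = 0.104, edgeR). The PD-1 gene Pdcd1 had 0 counts in the controls and 2, 1 and 1 in the KD libraries.

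Across the other checkpoint ligands the changes went both ways. Of 27 genes found, 17 were tested, 3 were called higher and 2 lower, and the median log2 fold change was 0.20. H2-T23, the mouse nonclassical MHC class I gene whose product binds the inhibitory receptor NKG2A, had 1594, 1638 and 1530 control counts and 4205, 3664 and 3761 KD counts, 1.29 ± 0.05 (SE) on the log2 scale with an edgeR adjusted p of 1.12e-21. Tnfsf9, the costimulatory ligand 4-1BBL, fell from 1107, 1146 and 1149 counts to 384, 311 and 296, −1.78 ± 0.09 (SE) on the log2 scale with an edgeR adjusted p of 1.30e-18. The remaining calls were on few counts and are named after their values were seen: Cd40 fell by 1.26 on the log2 scale, Ceacam1 rose by 1.85, and Tnfsf18 had 3, 0 and 0 control counts against 23, 20 and 21. Leaving out control replicate 2 took Ceacam1 out of the calls (edgeR adjusted p = 0.0533), and leaving out control replicate 1 moved Ceacam1 to 2.60. Tnfsf18 rose by 4.25 on the log2 scale. Without control replicate 1, the only control with counts of Tnfsf18, this value was 7.42, so its size rests on those few counts. Cd276, the gene of B7-H3, had 2598 to 2745 control counts and 2698 to 2922 KD counts and did not pass the test (log2 fold change 0.07, adjusted p = 0.177, edgeR).

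In the tryptophan and kynurenine list, 13 of 18 genes in the table were tested, 3 were called higher and 1 lower, and the median log2 fold change was −0.21. The called genes are the aryl hydrocarbon receptor Ahr, which kynurenine can activate, and both chains of a transporter of tryptophan and other large amino acids, Slc7a5 and Slc3a2. Ahr had 1041, 1146 and 959 control counts and 2620, 2773 and 2661 KD counts and rose 2.56-fold (edgeR adjusted p = 8.97e-20). Slc7a5 rose from 141 ± 9.08 to 321 ± 10.5 and Slc3a2 from 160 ± 3.50 to 352 ± 10.4 normalized CPM, log2 fold changes of 1.19 and 1.14. Ido2, the paralog of Ido1, was the gene called lower: it had 67, 55 and 65 control counts and 11, 9 and 7 KD counts (log2 fold change −2.78, standard error 0.45, adjusted p = 1.35e-06, edgeR), while Ido1 had more counts in every KD library than in the controls. Wars, the tryptophanyl-tRNA synthetase, rose 1.73-fold and was not called. Kmo and Haao, later enzymes of the pathway, had at most 3 counts in any library.

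In the list of extracellular nucleotide and adenosine genes, 19 of 31 genes in the table were tested, 4 were called higher and 1 lower, and the median log2 fold change was 0.38. Acpp, a phosphatase that can also form adenosine from AMP, had 4, 9 and 21 control counts and 523, 552 and 503 KD counts, 5.52 ± 0.24 (SE) on the log2 scale with an edgeR adjusted p of 9.57e-21. The fold of Acpp rests on its few control counts, and it was 6.31 on the log2 scale without control replicate 3. Bst1, an enzyme that uses NAD+, had 23, 24 and 31 control counts and 590, 493 and 516 KD counts, 4.35 ± 0.18 (SE) on the log2 scale with an edgeR adjusted p of 1.81e-21. Its relative Cd38 went the other way, from 10.1 ± 0.310 to 5.61 ± 0.213 normalized CPM, and was not called. P2ry2, a receptor of ATP and UTP, rose with a log2 fold change of 1.35, and Alpl, a phosphatase counted under 100 times and named after its values were seen, with 1.97 (2.64 without control replicate 2). The adenosine receptor gene Adora2b was called lower (log2 fold change −1.53, adjusted p = 0.00874, edgeR) on 37, 24 and 40 control counts and 20, 9 and 6 KD counts. It did not pass without control replicate 3 (adjusted p = 0.051, edgeR) or without KD replicate 3 (adjusted p = 0.0609, edgeR), and its difference was −2.12 without KD replicate 1. Nt5e did not pass the test, and Acpp, another gene of AMP dephosphorylation, started from few counts.

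Among other immunosuppressive enzymes and cytokines, 11 of 17 genes were tested, with 1 called higher and 1 lower and a median log2 fold change of −0.13. The called genes are isoforms of TGF-β. Tgfb2 had 77, 62 and 93 control counts and 841, 667 and 875 KD counts, 3.35 ± 0.14 (SE) on the log2 scale with an edgeR adjusted p of 2.50e-21. Tgfb3 fell from 615, 554 and 690 counts to 239, 254 and 247, −1.33 ± 0.11 (SE) on the log2 scale with an edgeR adjusted p of 1.08e-12. Ptges, which makes prostaglandin E2, fell from 569 ± 14.9 to 300 ± 3.17 normalized CPM, just under a fold change of 2. Other genes of prostaglandin synthesis rose: Ptgs2 by 0.45, Ptges2 by 0.42 and Ptges3 by 0.44 on the log2 scale.

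Regulators of Cd274 were read from a list of 30 genes, of which 30 were tested, 4 were called higher and 1 lower. By the adjusted p-value alone, 15 were higher and 14 lower, beside 36.7% of all genes tested in each direction. The median log2 fold change of the list was 0.10. Stat2 and Irf9, which carry type I interferon signals to the nucleus, rose by 2.11 and 1.04 on the log2 scale (edgeR adjusted p 3.59e-29 and 1.28e-18). Stat2 had 1914, 1859 and 2170 control counts and 8660, 8525 and 8474 KD counts, so the groups lay well apart. Irf9 was less than 2-fold higher with upper quartile scaling (0.997) and without control replicate 1 (0.98). Irf1, the factor that binds the IRF element, rose from 72.9 ± 4.55 to 137 ± 3.82 normalized CPM (SD, n = 3 each), 1.88-fold, and Socs1, a feedback inhibitor, rose 2.22-fold. The kinases upstream went down: Tyk2 fell from 50.6 ± 4.22 to 20.6 ± 0.484 normalized CPM and was called, and Jak2 fell from 83.8 ± 1.23 to 55.5 ± 2.35 and was not (log2 fold changes −1.30 and −0.59). Cmtm6, which keeps PD-L1 protein at the surface, rose 1.12-fold (adjusted p = 0.0154, edgeR), and did not pass with upper quartile scaling (adjusted p = 0.0708), without control replicate 2 (0.0575) or without KD replicate 2 (0.0552). A separate list held interferon response genes, some of which, such as Irf1 and Irf9, are also regulators here. In it, 22 of 22 tested genes were higher by the adjusted p-value, beside 36.7% of all genes tested, and the median log2 fold change was 2.36.

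For Cd47, 5 of 6 genes of its maturation and signaling were tested and 0 were called, with a median log2 fold change of −0.11. By the adjusted p-value alone, 3 were lower and 2 higher. Qpctl, the enzyme that modifies CD47 so that SIRPα can bind it, lay between 20.9 and 23.8 normalized CPM in the controls and at most 17.2 in the KD libraries, and it fell by 0.60 on the log2 scale (edgeR adjusted p = 6.77e-07). Calr, whose product at the cell surface opposes the CD47 signal, fell from 1028 ± 29.9 to 593 ± 13.8 normalized CPM, a log2 fold change of −0.79. The genes that rose were Ubqln1, which binds the tail of CD47, and Gnb2, a G protein subunit, by 0.46 and 0.25 on the log2 scale.

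**Figure D4:**
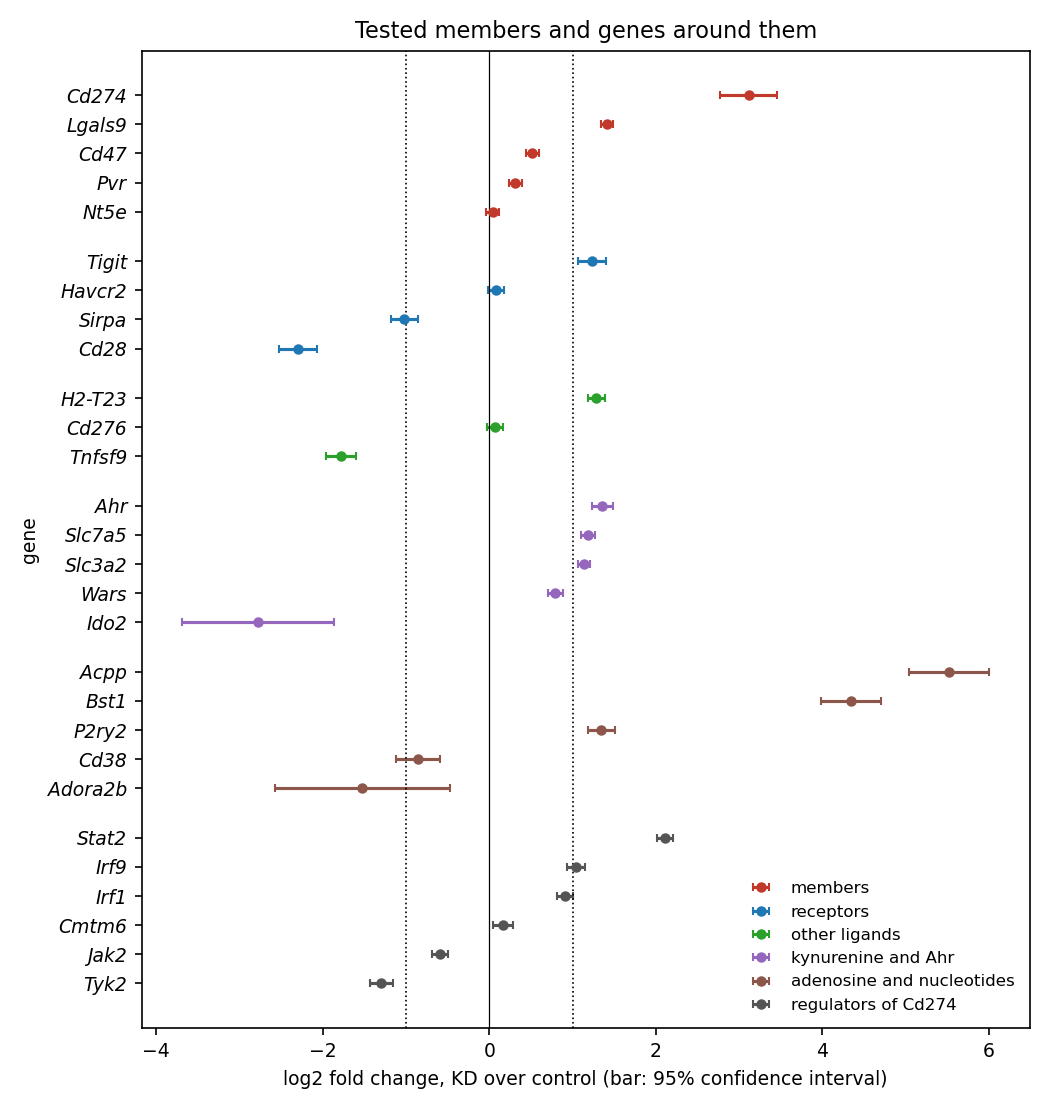
Log2 fold change of KD over control with 95% confidence intervals for the 5 tested genes (red) and for genes of their receptors, pathways and regulators, with dotted lines at a fold change of 2. Cd274 at 3.11 and Stat2 at 2.11 lie to the right, Jak2 at −0.59 and Tyk2 at −1.30 to the left, and Acpp at 5.52 is the farthest from 0 of the genes drawn.

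Over the 7 lists of receptors, ligands, pathways and regulators together, 102 of 142 genes in the table were tested, 16 were called higher and 8 lower, and the median log2 fold change was 0.10. These are 15.7% and 7.84% of the genes tested in the lists, beside 10.2% and 9.98% of all genes tested. Counts were not divided by gene length, so levels of different genes are not ranked.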

How the data were processed

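RNA-seq of 6 libraries was analysed, 3 LINC00115 KD and 3 control, grouped by their labels. The authors trimmed adapters and mapped reads with HISAT2 to hg19 according to the study's methods, while the submitters' processing notes name hg38, featureCounts and DESeq2. Which annotation was used, and whether counting was stranded, is not given in the sources used here. The authors deposited whole-number read counts per gene without normalization, in 1 table whose columns were matched to samples by name, with 0 columns unused.

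Testing used edgeR 4.0.16 under R 4.3.3: filterByExpr (minimum count 10, minimum total count 15), TMM normalization, and the quasi-likelihood test on the group with Benjamini-Hochberg adjustment over 13497 genes. The cutoffs (adjusted p below 0.05, more than 2-fold) follow the study's methods. Standard errors are the log2 fold change divided by the root of F. Normalized CPM use TMM-scaled library totals. Ratios of few counts have exact 95% intervals conditional on the total count (scipy 1.17.1). The pipeline was tested on simulated counts.

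The members and gene lists were chosen with earlier results of these data known. Named are the 10 genes, the genes of the 7 lists that were called and reached 100 counts in each library of the group where they were higher (at most 5 each way per list), and Jak2, Irf1 and Cmtm6. A further gene of this rule is not reported here. Other genes were named after their values were seen. Alternatives were other scalings, filters and tools, each replicate left out, and a replicate block. Cd226 and other listed genes that matched no symbol were not analysed here, and protein sequences were not used.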

Additional observations from a re-analysis of the deposited data

How the results depend on the processing

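Under 13 alternatives each, the log2 fold changes kept their direction and their side of the adjusted p-value threshold for Cd274 (3.01 to 3.30), Lgals9 (1.37 to 1.45), Cd47 (0.48 to 0.56), Pvr (0.27 to 0.35) and Nt5e (0.002 to 0.073, adjusted p 0.126 to 0.962 in edgeR or DESeq2). Without the fold-change threshold, 4 of the 5 tested genes were higher and 0 lower. Of the 102 related genes tested, 47 were higher and 39 lower, beside 36.7% of all genes tested in each direction. DESeq2 called 3 of the 10 genes higher, the additional gene being Ido1. Of the 24 related genes called, 20 were called in every alternative that gave a value, and the exceptions were Adora2b, Ceacam1, Irf9 and Sirpa, whose values stand beside their results. Requiring 10 counts in every library left 12 related genes called higher and 6 lower, and gave no value for Acpp, Alpl, Tnfsf18, Ido2, Adora2b and Ceacam1, which pass the other filter through the group where they are high. The medians of all genes under the other scalings lay between −0.05 and 0.0007. With the replicate block, 2 of the 10 genes were called higher and the log2 fold change of Cd274 was 3.12. The shares of all genes called under the alternatives are not given, so these counts compare settings only. Same-numbered libraries did not deviate together (correlations 0.0421, −0.0147 and −0.0214), so no pairing by number was visible. With 3 libraries per group this cannot exclude a shared culture or preparation. For Cd80, Cd86, Ido1, Entpd1 and Pdcd1lg2 the depth limits what can be said, and leaving out KD replicates to recompute the ratios of Ido1 and Entpd1 was chosen after seeing the data.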
